A study of Mus musculus with 10 samples.

Results

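The genes for PD-L1 (Cd274), PD-L2 (Pdcd1lg2) and the kinase JAK2 (Jak2) lie side by side on mouse chromosome 19, and the chromatin loops around them were followed through a model of macrophage priming. The members were the loops with an anchor overlapping 100 kb on either side of the transcription start site (TSS) of any of the 3 genes, in the loop lists of all 5 groups. A loop here is a pair of 10 kb bins on one chromosome that was called in a list. The rule found 134 distinct bin pairs of 153264 in all lists together, or 258 of 301424 list entries. It used the position of the loops and not their number or contacts.

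PD-L1 and PD-L2 are cell-surface ligands of the inhibitory receptor PD-1, and both restrain T cells that touch a macrophage. JAK2 is bound to the interferon-gamma (IFNG) receptor and is activated when IFNG binds, and PD-L1 is among the genes that IFNG induces. IL-4 signals mainly through STAT6, and PD-L2 is a familiar marker of IL-4-treated mouse macrophages.

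Hi-C, a method that ligates and sequences pieces of chromatin in spatial contact, was applied to bone marrow-derived macrophages from wild type female C57BL/6 mice aged 2 to 3 months. All cells were differentiated with M-CSF, and treatments were made on day 6. The M0[CTR] group had no treatment. The M2[IL-4] group was given 24 h of IL-4 (20 ng/ml), and in M2p[pIL-4] the cytokine was washed out and followed by 24 h of rest. The IFNG group had 3 h of IFNG (20 ng/ml) with no IL-4 before it, and the pIL-4 + IFNG group had the same after IL-4, washing and rest. The labels give 2 replicates per group and 10 samples in all, but only 1 loop list stands for each group. The differences below therefore lack a replicate check, and no condition was tested. The lists held 53424 to 67728 loops. Intervals are 95% intervals and cover counting error only. Those of loop numbers and shares take each bin pair as separate, so they are too narrow where bin pairs touch. A bin pair that a list does not hold has no count there and is not a 0. The lists carry no expression values, so the identity of the cells was not checked and nothing here measures the RNA of these genes.

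Coordinates are in GRCm38. Jak2 (ENSMUSG00000024789.13, chr19:29251828-29313080), Cd274 (ENSMUSG00000016496.7, chr19:29367455-29388095) and Pdcd1lg2 (ENSMUSG00000016498.10, chr19:29410919-29471161) are all on the plus strand. The start of Cd274 is 115627 bp beyond that of Jak2, and the start of Pdcd1lg2 is 43464 bp further. The windows therefore overlap, and 43 of the 134 bin pairs counted for all 3 genes, 75 for 2 and 16 for 1. The 10 kb bin with the start of Cd274 (chr19:29360001-29370000) also holds the start of Plgrkt, which runs the other way, so loops of that bin cannot be given to either gene.

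The 250 bases before each start are shown because the starts are anchors of the loops described below. They are RefSeq sequence (GRCm38.p6), read on the plus strand and ending just before the RefSeq start, and capitals mark a motif match. The ranges are chr19:29251553-29251802, chr19:29367188-29367437 and chr19:29410669-29410918, in that order.
Jak2: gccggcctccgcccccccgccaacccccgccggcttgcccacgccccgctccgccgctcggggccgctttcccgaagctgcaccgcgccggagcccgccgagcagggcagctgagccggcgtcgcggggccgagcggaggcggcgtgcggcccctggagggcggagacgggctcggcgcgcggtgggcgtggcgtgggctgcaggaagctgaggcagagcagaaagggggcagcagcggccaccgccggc
Cd274: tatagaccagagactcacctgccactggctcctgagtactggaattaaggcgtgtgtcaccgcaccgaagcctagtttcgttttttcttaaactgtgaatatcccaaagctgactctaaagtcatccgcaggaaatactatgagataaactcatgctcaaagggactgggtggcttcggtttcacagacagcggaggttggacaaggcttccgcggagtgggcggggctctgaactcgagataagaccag
Pdcd1lg2: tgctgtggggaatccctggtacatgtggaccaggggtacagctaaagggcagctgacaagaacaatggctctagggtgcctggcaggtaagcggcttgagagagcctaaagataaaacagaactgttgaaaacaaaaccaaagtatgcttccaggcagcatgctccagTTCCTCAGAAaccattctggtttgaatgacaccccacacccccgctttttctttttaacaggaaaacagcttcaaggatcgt
G and C made up 80.8% of the Jak2 stretch, 50.4% of that of Cd274 and 48.4% of that of Pdcd1lg2. The motifs searched, on both strands, were the STAT palindrome TTCNNNGAA, the same half-sites 4 bases apart, a pair of GAAA blocks 2 bases apart as in interferon regulatory factor (IRF) sites, and a CTCF core consensus with at most 1 mismatch. Of 32851 promoters, 7.02%, 5.85%, 2.98% and 0.155% held these motifs, respectively. The only match was in Pdcd1lg2, the half-sites 4 bases apart (TTCCTCAGAA, chr19:29410837-29410846), which is the spacing that STAT6 favours. A match is a description of the letters and not a bound site.

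Around the 3 genes, the IFNG lists held the most loops. The locus had 32 loops in M0[CTR], 41 under IL-4 (M2[IL-4]), 56 after rest (M2p[pIL-4]), 58 in IFNG and 71 after both (pIL-4 + IFNG). As a share of each list this was 0.0599%, 0.0704%, 0.0827%, 0.105% and 0.106%, so by this share the lists with IFNG were nearly equal. Scaled in this way, IFNG was 1.76-fold above M0[CTR] (log2 ratio 0.82, interval 0.17 to 1.49). M2p[pIL-4] was 1.38-fold above M0[CTR] (0.47, -0.19 to 1.14), and M2[IL-4] differed less (0.23, -0.47 to 0.95), both within counting error. After IL-4 priming, IFNG (pIL-4 + IFNG) was 1.28-fold above rest alone (0.36, -0.17 to 0.89). Between the IFNG lists, the log2 ratio of primed to unprimed was 0.01 (-0.51 to 0.53).

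**Figure D1:**
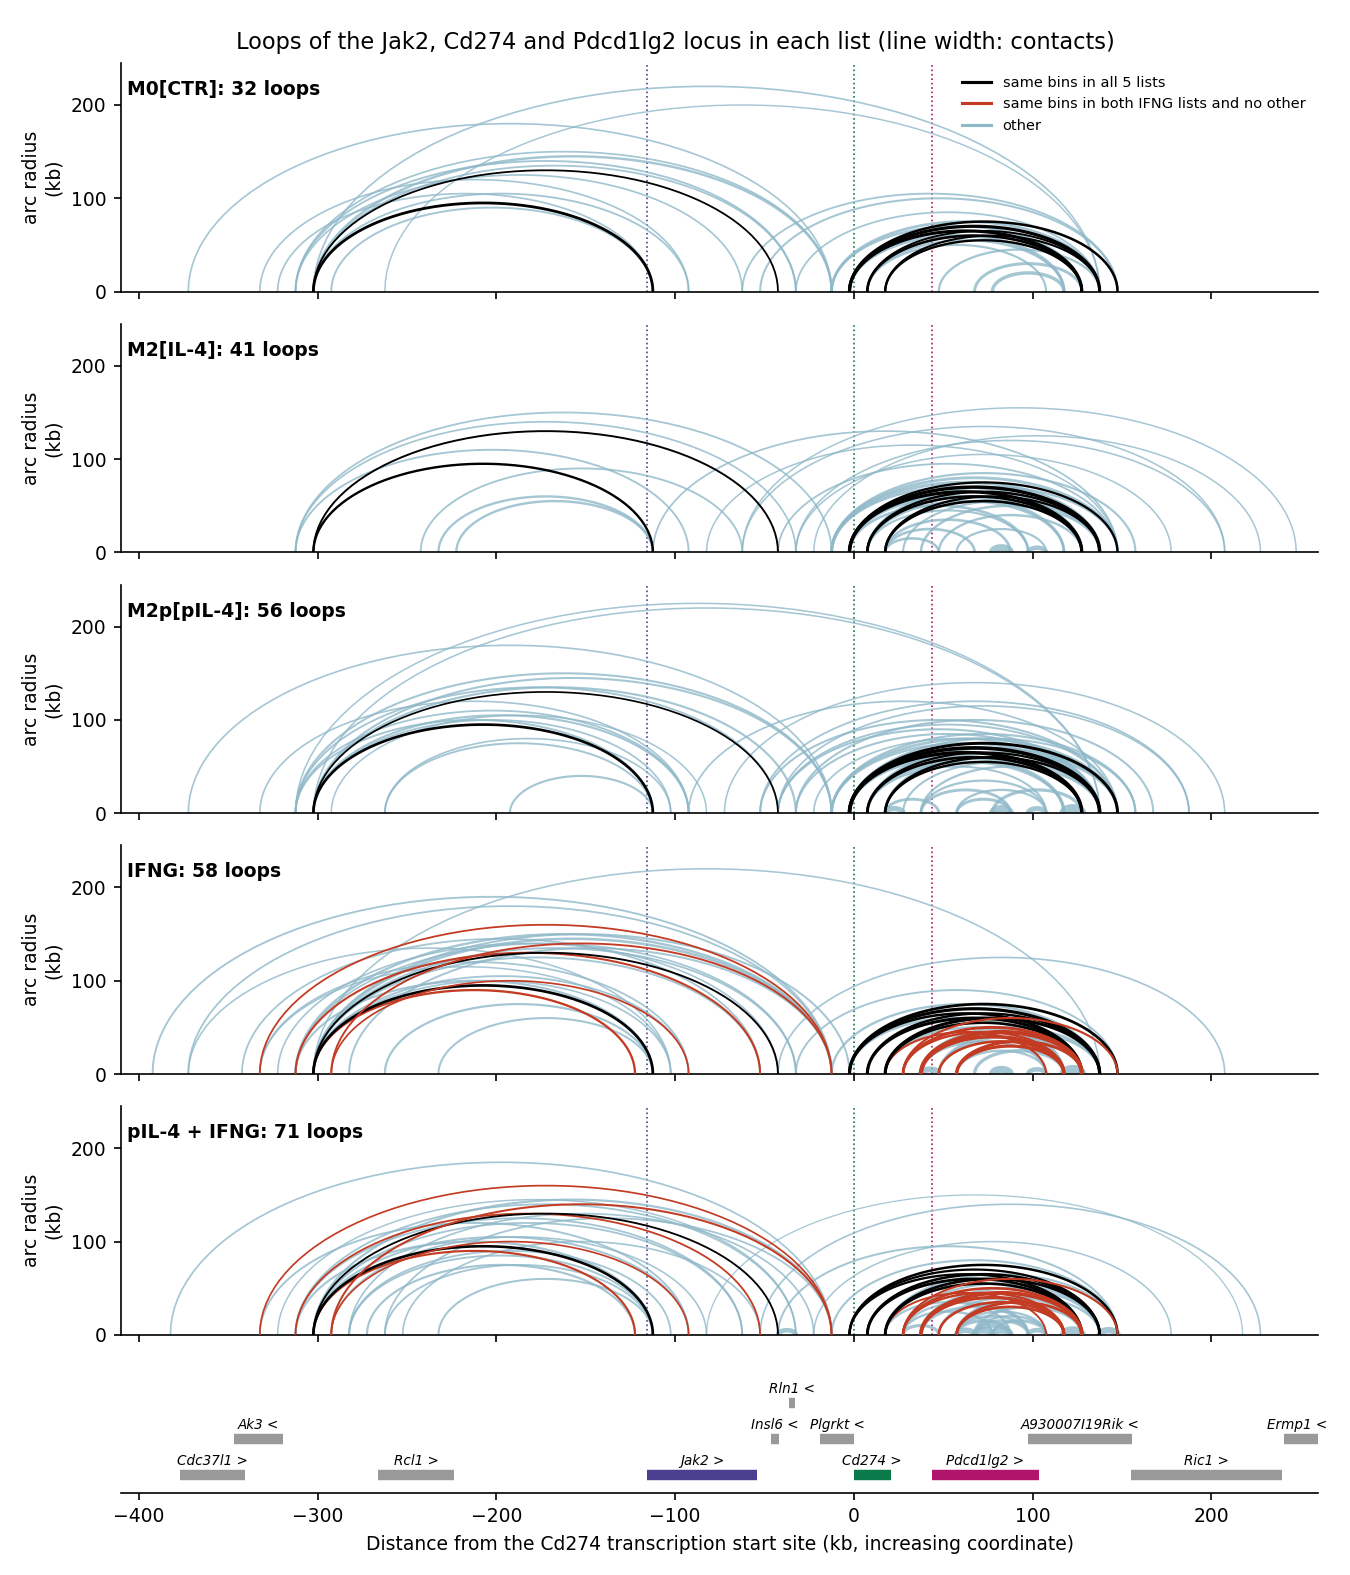
Arcs join the 2 bins of each loop in each of the 5 lists, against the distance from the Cd274 start in kb, with the radius of each arc in kb on the vertical axis and line width growing with contacts. Black arcs are the 9 bin pairs called in all 5 lists, red arcs the 14 called in both IFNG lists and no other, and the red arcs gather around Pdcd1lg2 and in the upstream arm.

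Jak2 had 17 loops in M0[CTR], then 20 (M2[IL-4]), 29 (M2p[pIL-4]), 28 (IFNG) and 31 (pIL-4 + IFNG). Cd274 had 27, 37, 49, 51 and 62, in the same order. Pdcd1lg2 had 26, 34, 45, 47 and 56. All 3 genes were thus lowest in M0[CTR] and highest in pIL-4 + IFNG before scaling. Scaled by list length, pIL-4 + IFNG was not above IFNG. The ratio was 0.909-fold for Jak2, 0.998-fold for Cd274 and 0.978-fold for Pdcd1lg2, all within counting error. In IFNG against M0[CTR], all 3 passed the 1.5-fold threshold used here. The scaled ratio was 1.60-fold for Jak2 (log2 0.68, -0.24 to 1.64), 1.83-fold for Cd274 (0.88, 0.18 to 1.61) and 1.76-fold for Pdcd1lg2 (0.81, 0.09 to 1.56). Of 9304 protein-coding genes with 20 or more loops over these lists, 7.15% were 1.5-fold or more above M0[CTR]. The members stood at the 94.9th, 97.2nd and 96.6th percentile of those genes, and as their windows share loops they are not separate observations. No member was 1.5-fold higher in the other 5 comparisons. The share of genes that much higher was 6.55% in M2[IL-4] over M0[CTR], 5.27% in M2p[pIL-4] over M0[CTR], 5.98% in M2p[pIL-4] over M2[IL-4], 7.29% for primed cells with IFNG over M2p[pIL-4], and 6.55% for the primed over the unprimed IFNG list.

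The call at 1.5-fold and its interval rest on counting bin pairs one by one. Many of them touch, as 25 of the 58 IFNG loops and 12 of the 32 M0[CTR] loops lay in a single cluster in their list. When bin pairs that touch were merged into clusters, the locus had 15 clusters in M0[CTR], 21 under IL-4 (M2[IL-4]), 23 after rest (M2p[pIL-4]), 19 in IFNG and 20 after both (pIL-4 + IFNG). The ratio of IFNG to M0[CTR] was then 1.23-fold for the locus, and 1.24-, 1.33- and 1.36-fold for Jak2, Cd274 and Pdcd1lg2. The IFNG lists had larger clusters instead. The mean was 3.05 bin pairs of the locus per cluster in IFNG and 3.55 in pIL-4 + IFNG, against 2.13 in M0[CTR], 1.95 in M2[IL-4] and 2.43 in M2p[pIL-4]. Over whole lists, this mean was 2.81 to 2.99 in every group.

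**Figure D2:**
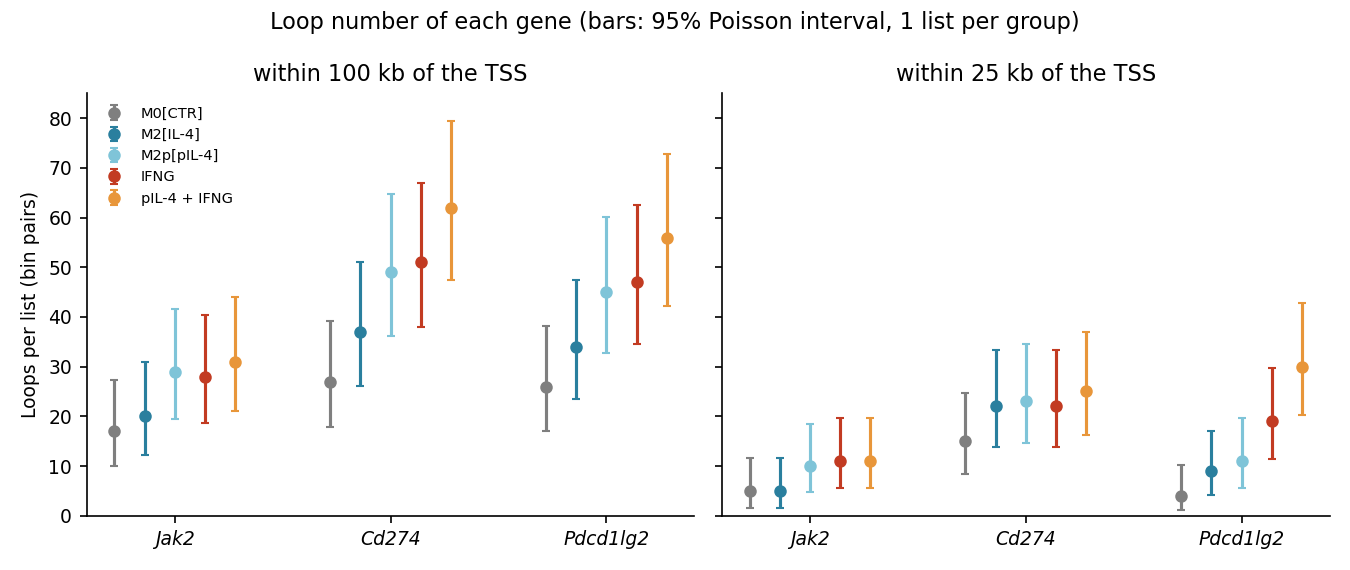
Points are the number of loops of each gene in each list, within 100 kb (left) or 25 kb (right) of its start, and bars are 95% Poisson intervals. Within 25 kb, Pdcd1lg2 went from 4 loops in M0[CTR] to 19 in IFNG and 30 in pIL-4 + IFNG, whereas Cd274 held 15 to 25 in the 5 lists.

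Of the 3 starts, that of Pdcd1lg2 showed the widest ratio. Within 25 kb of it, a window examined further after its values were seen, there were 4 loops in M0[CTR], then 9 (M2[IL-4]), 11 (M2p[pIL-4]), 19 (IFNG) and 30 (pIL-4 + IFNG). The IFNG lists were the highest and M0[CTR] the lowest. The ratio of IFNG to M0[CTR] was 4.61-fold (log2 2.21, 0.62 to 4.22). Of 4302 genes with 20 or more loops in that window, 6.42% reached 1.5-fold, and Tex19.2 and Kcnj4 alone had a higher ratio than Pdcd1lg2. For IFNG after priming, over M2p[pIL-4], the ratio was 2.76-fold (1.46, 0.43 to 2.61), with 13 of 5328 genes above it and 7.56% at 1.5-fold or more. Within the same distance, Cd274 had 15, 22, 23, 22 and 25 loops and Jak2 had 5, 5, 10, 11 and 11. For Cd274, IFNG over M0[CTR] was 1.42-fold (0.51, -0.50 to 1.56), below the threshold. The 16 loops of Jak2 in those lists were too few for the minimum of 20.

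The loops near Pdcd1lg2 also joined up. Its 4 loops in M0[CTR] fell into 3 clusters of touching bin pairs, while the 19 in IFNG fell into 2 and the 30 in pIL-4 + IFNG into 2. Counted as clusters, the order turned round, with a log2 ratio of -0.63 (-4.21 to 2.50) for IFNG to M0[CTR] and -1.80 (-5.10 to 0.59) for primed cells with IFNG to M2p[pIL-4], both on very few clusters. A single cluster held 18 of the 19 in IFNG. It spread over first anchors at chr19:29350001-29440000 and second anchors at chr19:29470001-29520000, and had 25 bin pairs and 1145 contacts. The largest cluster in M0[CTR] reached from chr19:29350001-29390000 to chr19:29470001-29520000, with 12 bin pairs and 495 contacts. The largest in pIL-4 + IFNG had 37 bin pairs and 1872 contacts, in M2[IL-4] 17 and 723, and in M2p[pIL-4] 23 and 897.

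**Figure D3:**
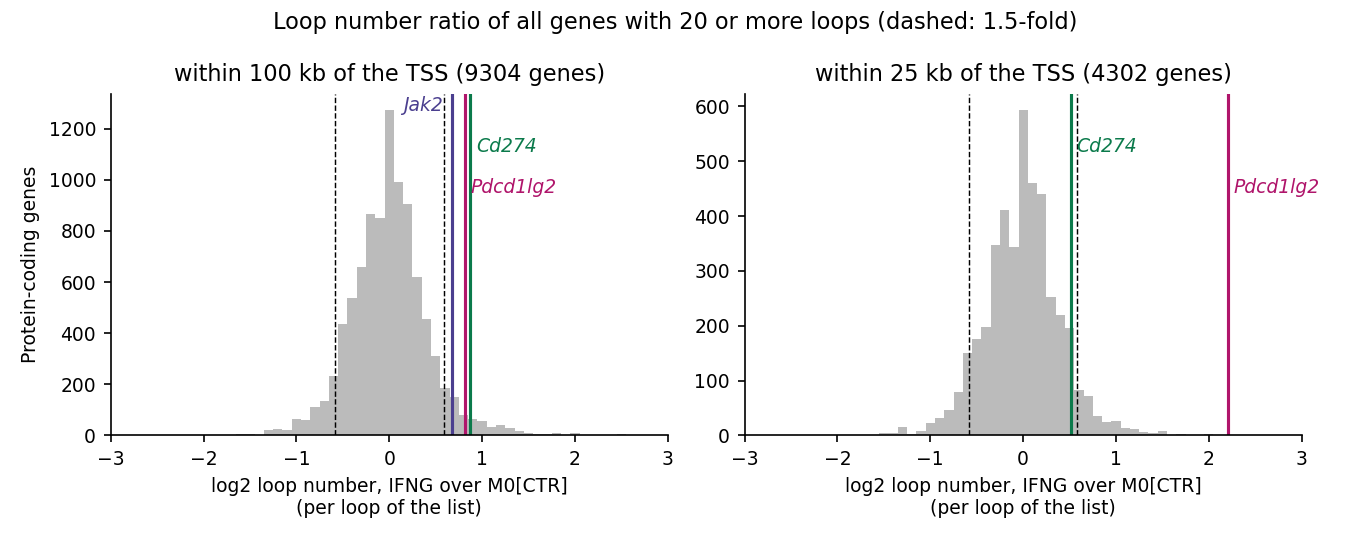
Histograms give the number of protein-coding genes by log2 ratio of loop number, IFNG over M0[CTR] scaled by list length, within 100 kb (left, 9304 genes) or 25 kb (right, 4302 genes) of the start, with dashed lines at 1.5-fold. Pdcd1lg2 lies at 2.21 on the right and Cd274 at 0.51, and all 3 members lie between 0.68 and 0.88 on the left.

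The loops ran in 2 main directions from the genes, a split made after the values were seen. The upstream arm joined the locus to bins at chr19:28970001-29150000, across Cdc37l1, Ak3, Rcl1 and the start of the long noncoding RNA AC113961.1. It held 14 loops in M0[CTR], 8 under IL-4 (M2[IL-4]), 17 after rest (M2p[pIL-4]), 27 in IFNG and 25 after both (pIL-4 + IFNG). M2[IL-4] was thus the lowest and the IFNG lists the highest. The downstream arm joined the locus to chr19:29470001-29530000, which runs from the 3′ end of Pdcd1lg2 through the antisense gene A930007I19Rik to the start of Ric1. It held 18, 21, 27, 26 and 27 loops in the same order. Most of these downstream bins lie inside the 100 kb windows. The remaining bin pairs were adjacent bins, loops inside the windows that ended in none of the downstream bins, and loops further into Ric1 and Ermp1. They numbered 0 in M0[CTR], then 12 (M2[IL-4]), 12 (M2p[pIL-4]), 5 (IFNG) and 19 (pIL-4 + IFNG).

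**Figure D4:**
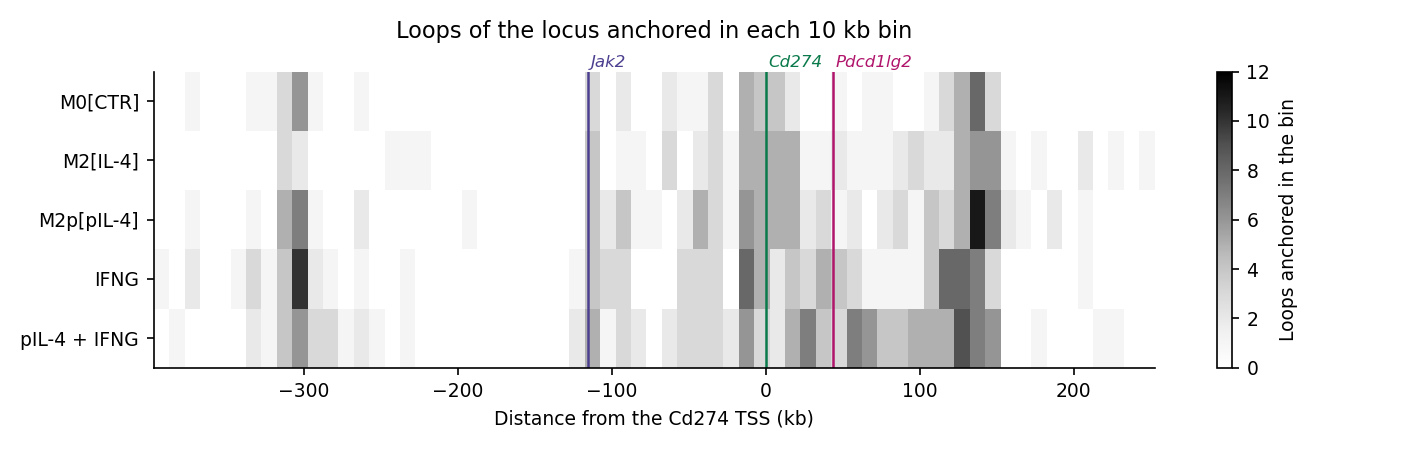
Each cell is a 10 kb bin, placed by its distance from the Cd274 start in kb, and its shade is the number of loops of the locus anchored there in each list. The bin about 302 kb upstream held 10 loops in IFNG and 2 in M2[IL-4], and the bins on either side of the Pdcd1lg2 start were emptiest in M0[CTR].

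The start of Jak2 was an anchor of the upstream arm. Its bin (chr19:29250001-29260000) had 3 loops in M0[CTR], 4 under IL-4 (M2[IL-4]), 4 after rest (M2p[pIL-4]), 4 in IFNG and 5 after both (pIL-4 + IFNG). One of them was called in all 5 lists and led to chr19:29060001-29070000, where AC113961.1 starts. It had 47 contacts in M0[CTR], then 37 (M2[IL-4]), 44 (M2p[pIL-4]), 45 (IFNG) and 43 (pIL-4 + IFNG). These counts differed by less than their counting error in every comparison, with log2 ratios between -0.34 and 0.21. A loop of the Jak2 start with the start of Rcl1 (chr19:29100001-29110000) was called in M2p[pIL-4] (27 contacts), IFNG (33) and pIL-4 + IFNG (24). A loop with chr19:29050001-29060000, beside the AC113961.1 bin, was called in the same 3 lists, with 27, 30 and 32 contacts. The bin of the Jak2 start was also the only 1 of the 53 anchor bins with a CTCF core match, at chr19:29253973-29253986 on the minus strand with 1 mismatch, against 2.97% of the 5821 bins of chromosome 19. CTCF is the insulator protein found at many loop anchors. The match is shown 5′ to 3′ on the motif's strand, in capitals, with 8 bases on either side.
CTCF core in the Jak2 start bin: catcttaaCCACCAGGGGGCAGcaccacgg

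The start bin of Cd274 had loops to downstream bins in all 5 lists, and 1 loop upstream, to the AC113961.1 bin (chr19:29060001-29070000), that was called in IFNG alone with 28 contacts. Counting that one, it had 4 loops in M0[CTR], 5 each in M2[IL-4], M2p[pIL-4] and IFNG, and 3 in pIL-4 + IFNG. The 3 called everywhere led to neighbouring bins in A930007I19Rik. With chr19:29490001-29500000 it had 55 contacts in M0[CTR], 56 under IL-4 (M2[IL-4]), 62 after rest (M2p[pIL-4]), 41 in IFNG and 35 after both (pIL-4 + IFNG). With chr19:29500001-29510000 the counts were 56, 62, 69, 57 and 34, in the same order. With chr19:29510001-29520000 they were 41, 35, 51, 46 and 40. The highest counts of all 3 pairs were in M2p[pIL-4], and for the first 2 pairs pIL-4 + IFNG was lowest. A loop to chr19:29480001-29490000 had 54, 47, 58 and 42 contacts in the other lists and was not called in pIL-4 + IFNG. The loop to chr19:29500001-29510000 was the strongest of the locus at 20 kb or more in M2[IL-4] and in M2p[pIL-4].

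Summed over the 3 bin pairs called in both lists, the Cd274 start bin had 109 contacts in pIL-4 + IFNG and 182 in M2p[pIL-4] (log2 ratio -0.72, -1.08 to -0.37). The binomial p was 3.64e-05, and the adjusted p over 25654 anchor bins was 0.361, so it was not called. None of those anchor bins was (0%). In IFNG against M0[CTR] the same bin had 186 and 206 contacts over 4 bin pairs (-0.19, -0.48 to 0.10), where 0.0187% of anchor bins passed. The difference between these 2 effects of IFNG, with and without earlier IL-4, was -0.60 over the 3 pairs in all 4 lists, with an exact p of 0.0156 that was 1 after adjustment over 15335 anchor bins. These tests compare libraries and not conditions, and were chosen after the lists had been seen.

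Summed over their 100 kb windows, contacts at bin pairs called in both lists were near even. Pairs called in only 1 list are left out, so these sums cannot speak to the differences in loop number. For Cd274 in IFNG against M0[CTR] they were 666 and 622 over 18 bin pairs (log2 ratio 0.06, -0.10 to 0.22), for Pdcd1lg2 637 and 598 (0.05, -0.12 to 0.21) and for Jak2 302 and 290 (0.01, -0.22 to 0.25). No member passed in any of the 6 comparisons by the binomial test (adjusted p 1 in each), where 0.0911% of all genes did in IFNG against M0[CTR], 0.0215% for IFNG after priming against M2p[pIL-4], 0.00753% in M2[IL-4] against M0[CTR] and 0% in the others. At an unadjusted p under 0.05 there was 1, Pdcd1lg2 in pIL-4 + IFNG against IFNG (1363 and 1497 contacts, p 0.0361), a comparison in which 306 of 13775 genes were under it. Nor did any single bin pair of the locus pass, against 0.00797% of all pairs in IFNG against M0[CTR] and 0% in the other comparisons. At an unadjusted p under 0.05, 4 passed over the 6 comparisons, where 1.47% to 1.77% of all pairs in a comparison did. The widest ratio was for the Cd274 start bin with chr19:29500001-29510000, at 34 contacts in pIL-4 + IFNG and 69 in M2p[pIL-4] (interval of the log2 ratio -1.64 to -0.39, p 0.000926, adjusted p 1). The largest in IFNG against M0[CTR] joined the 3′ part of Cd274 (chr19:29380001-29390000) to that same downstream bin, with 55 and 31 contacts (0.78, 0.12 to 1.47, p 0.0186, adjusted p 1).

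No loop in any list joined the start bins of 2 of the genes. A loop from the 3′ bin of Cd274 (chr19:29380001-29390000) to the start bin of Pdcd1lg2 was called in M2[IL-4] with 43 contacts and in M2p[pIL-4] with 49, and in no other list. The touching pair, from chr19:29390001-29400000 to the same start bin, was called in pIL-4 + IFNG with 56 contacts.

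Around the start of Pdcd1lg2, several bin pairs were called in the IFNG lists alone. Its start bin (chr19:29410001-29420000) had 1 loop in M0[CTR], then 2 (M2[IL-4]), 1 (M2p[pIL-4]), 4 (IFNG) and 3 (pIL-4 + IFNG). The bin before it (chr19:29400001-29410000), which overlaps no gene, had 0, 1, 3, 5 and 4. From that bin, a loop to chr19:29490001-29500000 had 83 contacts in IFNG and 75 in pIL-4 + IFNG, and was not called in the other 3 lists. Among all loops of that span in the same list, it stood at the 98.2nd percentile of contacts in IFNG, where the median was 44, and at the 97.6th in pIL-4 + IFNG. It was the strongest loop of the locus at 20 kb or more in IFNG. Its neighbour, from the same bin to chr19:29480001-29490000, had 66 and 58 contacts in the IFNG lists and was likewise not called in the others. Contact of this bin with the downstream region was not limited to the IFNG lists, however. Its pair with chr19:29500001-29510000 lacked a call in M0[CTR] alone. That pair had 41 contacts (M2[IL-4]), 35 (M2p[pIL-4]), 39 (IFNG) and 39 (pIL-4 + IFNG). The start bin of Pdcd1lg2 with chr19:29480001-29490000 had 43 contacts in each IFNG list and was called in no other. The start bin of Pdcd1lg2 with chr19:29500001-29510000 had 35 contacts in M0[CTR], 33 in IFNG and no call elsewhere.

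**Figure D5:**
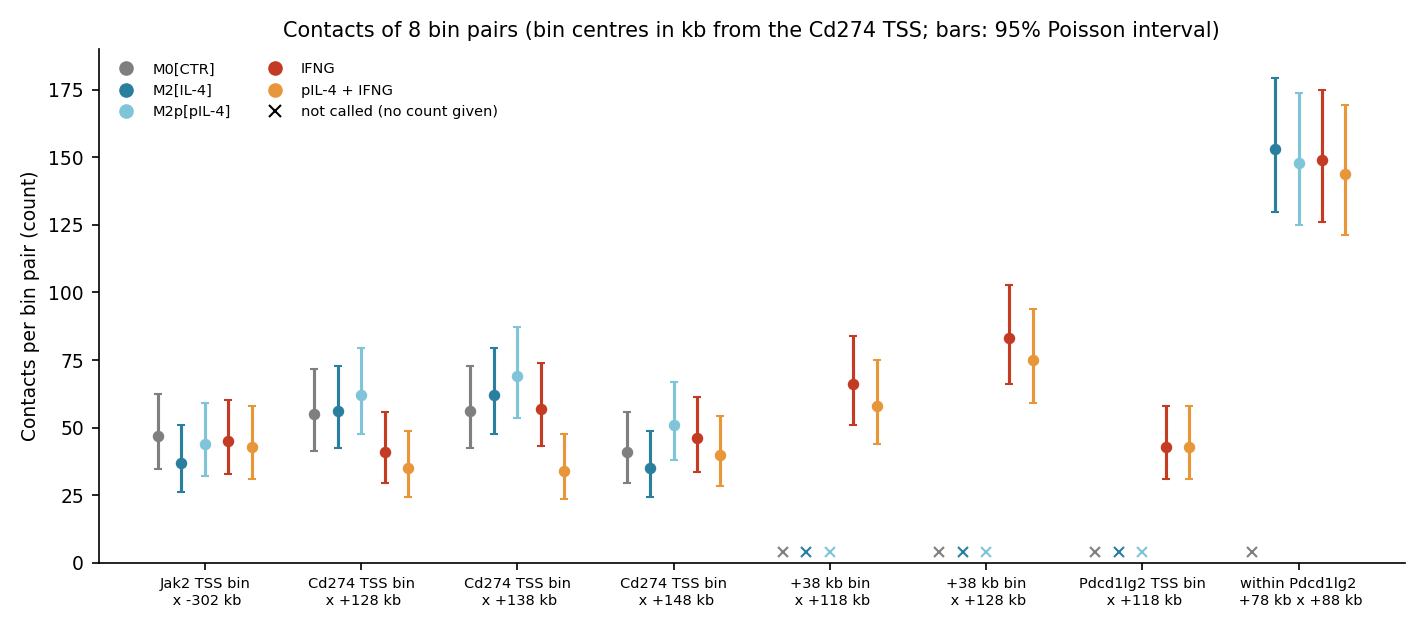
Points are the contacts of 8 bin pairs in each list with 95% Poisson intervals, and crosses mark lists that did not call the pair and so give no count. The 3 pairs of the Cd274 start bin were called in all 5 lists. The bin before the Pdcd1lg2 start has its centre about 38 kb beyond the Cd274 start. Its pair with chr19:29490001-29500000 was called in the IFNG lists only, with 83 and 75 contacts.

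In all, 14 of the 134 bin pairs (10.4%) were called in both IFNG lists and no other, against 2.11% of all bin pairs. Of these, 9 ran downstream, from chr19:29380001-29430000 to chr19:29470001-29520000, and 5 upstream. The 9 lay within the span of the largest cluster of touching pairs in each IFNG list. They are therefore not separate observations, and the share of 10.4% counts that cluster many times. The 5 upstream pairs had 21 to 35 contacts in IFNG and 20 to 31 in pIL-4 + IFNG. The strongest of them joined the AC113961.1 bin to the bin before the Jak2 start (chr19:29240001-29250000), with 35 and 31 contacts. Called in all 5 lists were 9 bin pairs (6.72%, against 9.18% of all), of which 2 were upstream and 7 downstream.

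When anchors were matched more loosely, few loops of the IFNG lists were without a counterpart. With anchors matched to within 25 kb, only 2 of 58 IFNG loops (3.45%, against 5.64% of that list) and 2 of 71 pIL-4 + IFNG loops (2.82%, against 6.21%) had no counterpart in the 3 lists without IFNG. In the same bins these numbers were 27 (46.6%, against 32.0%) and 40 (56.3%, against 35.2%), and within 10 kb they were 6 (10.3%, against 9.86%) and 7 (9.86%, against 11.0%), close to the whole lists. Conversely, 90.6% to 96.9% of the 32 M0[CTR] loops had a match within 25 kb in each other list. The share of loops matched in M0[CTR] was 70.7% under IL-4 (M2[IL-4], 29 of 41, Wilson interval 55.5 to 82.4) and 76.8% after rest (M2p[pIL-4], 43 of 56, 64.2 to 85.9). It was 86.2% for IFNG (50 of 58, 75.1 to 92.8) and 74.6% after both (pIL-4 + IFNG, 53 of 71, 63.4 to 83.3). Over whole lists it was 86.4%, 85.9%, 87.0% and 84.9%, respectively, above the interval of the locus in M2[IL-4] and pIL-4 + IFNG. Those intervals take each bin pair as separate. A single cluster of touching pairs held 17 of the 41 M2[IL-4] loops, and another held 37 of the 71 in pIL-4 + IFNG. The intervals are therefore too narrow, and a difference from the whole lists was not tested.

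Inside Pdcd1lg2, loops with both anchors in the 7 bins of the gene numbered 0 in M0[CTR], 3 under IL-4 (M2[IL-4]), 4 after rest (M2p[pIL-4]), 3 in IFNG and 11 after both (pIL-4 + IFNG). Jak2, which also covers 7 bins, and Cd274, which covers 3, had none in any list. The pair of adjacent bins at chr19:29440001-29460000 was not called in M0[CTR] and had 153 contacts (M2[IL-4]), 148 (M2p[pIL-4]), 149 (IFNG) and 144 (pIL-4 + IFNG) in the other lists. Another adjacent pair, chr19:29460001-29480000, had 89, 100, 90 and 92 contacts in the same lists and no call in M0[CTR]. Of the 11, 7 were in pIL-4 + IFNG alone. Over the locus, 26 of 134 bin pairs (19.4%) were in that list alone, against 13.3% of all bin pairs. A single cluster of touching pairs held 37 of the 71 loops of that list, so its bin pairs are not separate observations. The strongest of the 11 at 20 kb joined chr19:29430001-29440000 to chr19:29450001-29460000 with 87 contacts. It was the strongest of the locus at that distance or more in pIL-4 + IFNG.

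A few loops stood alone, with no match within 25 kb in any other list. M0[CTR] had 1, from the start of Rcl1 to chr19:29500001-29510000 (15 contacts). M2p[pIL-4] had 1, from chr19:29170001-29180000 to the start of Jak2 (32 contacts). IFNG had 1, from the start of Cdc37l1 to chr19:29260001-29270000 in Jak2 (18 contacts), pIL-4 + IFNG had 1, between the starts of Insl6 and Rln1 (91 contacts in adjacent bins), and M2[IL-4] had none. Lone loops were no more common at the locus than over whole lists. For M0[CTR] the share was 3.1% of locus loops, against 3.6% of the list. For M2[IL-4] it was 0% against 4.5%, and for M2p[pIL-4] 1.8% against 5.0%. The IFNG list had 1.7% against 4.1%, and the primed list with IFNG had 1.4% against 4.9%. With at most 1 such loop per list, these differences were not tested.

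Nearby genes shared these loops. Within 100 kb of their starts, Insl6 had 28 loops in M0[CTR] and 53 in IFNG (1.84-fold), and Rln1 had 29 and 54 (1.81-fold). Upstream, Cdc37l1 had 16 and 29 (1.76-fold), and Ric1 downstream had 23 and 34 (1.44-fold). M2[IL-4] was low at the upstream neighbours, with 6 loops at Cdc37l1 and 9 each at Ak3 and Rcl1, against 16, 17 and 16 in M0[CTR].

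The lists of other pathway genes held none past the threshold in IFNG against M0[CTR]. None of the 6 B7 family and PD-1 pathway genes tested of 12 listed passed 1.5-fold (median log2 ratio -0.24), nor did any of 3 other JAK kinases (0.25) or 6 of 8 genes from the IL-4 receptor to STAT6 (0.09). As 7.15% of all genes did, a count of 0 in lists this short is near the background. The median over all 9304 genes was -0.03. Tyk2, a JAK of cytokine receptors, had 36 loops in M0[CTR], then 43 (M2[IL-4]), 53 (M2p[pIL-4]), 44 (IFNG) and 62 (pIL-4 + IFNG). Before scaling, its number was lowest in M0[CTR] and highest in pIL-4 + IFNG. The other JAKs listed were, also before scaling, lowest in M0[CTR], but highest in M2p[pIL-4]. In the same order of groups, Jak1 had 8, 9, 18, 12 and 9 loops, and Jak3 had 36, 39, 46, 38 and 43. M0[CTR] was the shortest loop list and M2p[pIL-4] the longest, so these ranks partly follow list length. Scaled, the log2 ratio of M2p[pIL-4] to M0[CTR] was 0.01 for Jak3, 0.22 for Tyk2 and 0.83 for Jak1. In M2p[pIL-4] against M0[CTR], each of these 3 gene lists had 1 gene that was 1.5-fold higher, of 7, 3 and 6 tested, where 5.27% of all genes were. It was Cd28 in the first and Jak1 in the JAK and IL-4 lists. With IFNG after priming, against M2p[pIL-4], none was higher. Lower were 2 of 8 B7 family and PD-1 pathway genes (Cd28 and Cmtm6), where 5.36% of all genes were. Jak1 was lower too, as 1 of 3 JAKs and 1 of 6 genes of the IL-4 pathway. Both comparisons use the same M2p[pIL-4] counts, so for Cd28 and Jak1 they are not separate results. A gene may stand in more than 1 list.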

How the data were processed

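Hi-C loop lists of 5 groups were analysed, 1 per group. The count in each list is, as deposited, a whole number of contacts per pair of 10 kb bins. The authors' methods describe HiC-Pro, bowtie2 and loops called by HICCUPS at 25 kb, and per the labels mm10, Juicer and HOMER were also used. As the lists give neither a false discovery rate nor an expected value, it is unknown which caller and threshold produced them, and called counts are not the library's depth. Loop numbers were scaled by list length, with exact conditional binomial intervals. A gene needed 20 loops over both lists, and 1.5-fold was the threshold. Contacts at bin pairs called in both lists were compared by two-sided exact binomial tests, with all such contacts as offset and Benjamini-Hochberg adjustment over all features. The scripts were tested on simulated data. Genes were 21755 protein-coding records of GENCODE M21. The members, gene lists and named loops (start-bin loops in all 5 lists, the strongest and most changed loops, and loops alone) were chosen with earlier results of these data known, and other loops named were chosen after their values were seen. Python 3.11.15, scipy 1.17.1, pandas 2.3.3 and matplotlib 3.10.9 were used. One further gene list is not reported here.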

Additional observations from a re-analysis of the deposited data

How the results depend on the processing

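No paired analysis was possible because the loop lists carry no values for single replicates, and for the same reason no replicate could be left out. Values are log2 ratios of loop number unless named. IFNG to M0[CTR] for the locus kept its direction under all 10 alternatives (0.30 to 1.07) and stayed past 1.5-fold except with touching bin pairs merged (0.30). Merging also took Jak2 (0.31), Cd274 (0.41) and Pdcd1lg2 (0.45) under it, as did a 25 kb window for Cd274 (0.51) and a minimum of 20 contacts for Jak2 (0.56). With the 25 kb window Pdcd1lg2 left its interval at 2.21. Merging moved pIL-4 + IFNG to M2p[pIL-4] at the locus to -0.19, and within 25 kb of Pdcd1lg2 it turned that ratio to -1.80 and IFNG to M0[CTR] to -0.63, since merged clusters are fewer and larger. The share matched in M0[CTR] moved with the rule for a match. In the same bins it was 36.6% (M2[IL-4]), 39.3% (M2p[pIL-4]), 34.5% (IFNG) and 21.1% (pIL-4 + IFNG), and within 50 kb it was 82.9%, 92.9%, 94.8% and 91.5%. No test of contacts changed side under its alternatives. The 4 to 30 loops close to a start and the 15 to 87 contacts of most pairs limit what can be told apart.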
